A study of Homo sapiens with 12 samples.

Results

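The 10 genes described here encode the COPII coat, the protein shell that buds transport vesicles from the endoplasmic reticulum (ER). They were taken by gene symbol from the deposited gene table: SEC24A, SEC24B, SEC24C, SEC24D, SEC23A, SEC23B, SAR1A, SAR1B, SEC31A and SEC13, which are 10 of 18668 listed genes. The rule itself uses no measured value, but the members were chosen with earlier results of these data known. RNA came from 22Rv1, a human prostate carcinoma cell line that grows independently of androgen and whose genotype is labelled WT, after 24 h with 1 of 4 agents. These were a degrader that targets the androgen receptor (titled 22Rv1_2024), the receptor antagonist enzalutamide, a ligand that activates autophagy (titled 22Rv1_1021), and the vehicle. Each group had 3 biologically independent replicates of this 1 line, and the labels gave no dose for any agent.

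Proteins made in the ER leave it in COPII vesicles. The small GTPase SAR1 binds the ER membrane and recruits SEC23 and SEC24 as an inner coat, in which SEC23 stimulates GTP hydrolysis by SAR1 and SEC24 binds the sorting signals of cargo; SEC13 and SEC31 then polymerise as an outer cage. Vertebrates have several paralogs of most subunits, and the SEC24 paralogs form pairs of closer relatives, SEC24A with SEC24B and SEC24C with SEC24D, that differ in the cargo they bind. Prostate luminal cells are secretory, and several stress-responsive transcription factors are themselves carried out of the ER in these vesicles before they are cleaved.

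The upstream sequences of some coat genes are shown first. Motifs of ER stress factors were searched in the promoters of the coat genes. RefSeq windows of 300 bases, 250 before and 50 after the gene start, were matched on GRCh38.p14 for 9 of the 10 genes, all but SEC24D. The 250 bases before the start of SEC31A (chr4:82900570-82900819, minus strand), SEC24C (chr10:73744122-73744371, plus strand) and SEC24A (chr5:134648535-134648784, plus strand) follow, read 5′ to 3′ on the strand of the gene. Capitals mark TGACGTGG, the unfolded protein response element that ATF6 and XBP1 can bind.
SEC31A: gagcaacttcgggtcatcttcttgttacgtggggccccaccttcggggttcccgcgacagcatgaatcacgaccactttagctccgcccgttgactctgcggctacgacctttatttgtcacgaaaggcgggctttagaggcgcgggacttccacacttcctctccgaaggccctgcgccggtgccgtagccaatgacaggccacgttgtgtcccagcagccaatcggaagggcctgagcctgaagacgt
SEC24C: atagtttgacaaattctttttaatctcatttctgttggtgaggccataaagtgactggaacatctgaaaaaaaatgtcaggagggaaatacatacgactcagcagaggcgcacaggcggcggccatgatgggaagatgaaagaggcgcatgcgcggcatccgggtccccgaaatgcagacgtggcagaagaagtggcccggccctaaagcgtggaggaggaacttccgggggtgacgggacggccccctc
SEC24A: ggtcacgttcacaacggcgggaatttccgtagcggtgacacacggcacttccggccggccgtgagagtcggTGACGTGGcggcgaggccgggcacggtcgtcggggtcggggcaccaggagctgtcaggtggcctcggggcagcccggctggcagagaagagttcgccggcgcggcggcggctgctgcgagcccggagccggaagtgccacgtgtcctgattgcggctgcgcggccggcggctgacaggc

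TGACGTGG, searched on both strands, was found in 2 of the 9 windows: that of SEC24A at -179 bases from the start, and that of SEC23A at -4. It was present in 0.795% of the 27305 windows of that table and in 0.904% of the 12835 that belong to tested genes. The shorter TGACGT, the core of the cyclic AMP response element and contained in TGACGTGG, was found in 6 of the 9 windows: SEC24A, SEC24C, SEC23A, SEC23B, SAR1A and SEC13. It was present in 8.32% of all windows and in 11.1% of those of tested genes. The windows of the coat genes held 54.3 to 75.7% G and C, against a median of 58.3% over all windows and 65.0% over those of tested genes. No window of the 9 held the ER stress response element (CCAAT, any 9 bases, CCACG). None held TGATGNAAN, the composite element of ATF4 and C/EBP, or TCACNCCAC, a sterol regulatory element. In that order, they were present in 0.0806%, 3.67% and 1.15% of all windows. Among windows of tested genes the shares were 0.117%, 1.74% and 1.06%. A match is a match of letters, and its relation to the levels was not tested. The 2 genes with TGACGTGG were not called with the degrader against vehicle in the model of all 12 libraries with no replicate block. The fold was 1.12 for SEC24A (edgeR adjusted p 0.115) and 0.999 for SEC23A (0.983). The SEC24A call depended on the setting. Its edgeR adjusted p was 0.0345 without vehicle replicate 3, and 0.00343 once replicate number entered the model. SEC24C, which was called (edgeR adjusted p 0.00541), held TGACGT. SEC31A, whose level also differed between groups, had no match to any of these 5 motifs in its window. SEC24D, which rose most of the 10 genes, had no window to search.

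The 12 libraries held 55547270 to 77208794 counted reads; the lowest and highest totals were 58296737 and 77208794 for the degrader, and 60161391 and 74814561 for vehicle. The coat genes had 2124 to 16255 reads per gene and library. Within a group, the SD of a coat gene was 0.623% (SEC23B, vehicle) to 10.8% (SAR1B, ligand) of its mean. Counting error and the spread between replicates were not separated. Of 10 luminal prostate markers, 10 were listed, with summed levels of 902 to 981 FPKM (fragments per kilobase, scaled to depth by the authors) with the degrader, 1060 to 1150 with enzalutamide, 1180 to 1290 with the ligand and 1260 to 1360 with vehicle. Of 15 markers of fibroblasts, basal cells, endothelium and leukocytes, 9 were not listed in the table, among them KRT5, TP63, PECAM1 and PTPRC. The other 6 summed to 4.31 to 4.53 FPKM with the degrader, 4.69 to 4.86 with enzalutamide, 4.32 to 4.82 with the ligand and 4.66 to 5.02 with vehicle. The luminal sum was thus lowest in the degrader libraries, and its part in the results that follow was not tested. In bulk RNA, fewer cells of a type and less RNA per cell cannot be told apart.

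The coat was measured in depth in every library. Scaled to length, the inner coat subunit SEC23B was highest in vehicle, at 50.6 ± 0.423 FPKM (SD, n = 3), above 93.0% of listed genes. It was followed by the cage subunit SEC13 at 42.9 ± 0.806 FPKM and the cargo adaptor SEC24C at 36.3 ± 0.537 FPKM. A middle range held SEC23A at 21.0 ± 1.07, SEC31A at 17.4 ± 0.293, SAR1A at 16.1 ± 0.630 and SEC24B at 15.5 ± 0.912 FPKM in vehicle; SAR1A and SEC24B differed by less than their spread. The lowest levels in vehicle were those of SAR1B at 9.59 ± 0.917, SEC24D at 8.98 ± 0.426 and SEC24A at 8.91 ± 0.836 FPKM, 3 neighbours in that order that did not differ beyond their spread. Every subunit family was therefore represented, and each of the 10 genes lay above at least 65.3% of listed genes in vehicle.

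With the degrader, 3 of the 10 coat genes rose against vehicle and 0 fell. SEC24D, a cargo adaptor of the inner coat, rose 1.66-fold, SEC31A, the rod of the outer cage, 1.20-fold, and SEC24C, the closest relative of SEC24D, 1.13-fold. Among all 17702 genes tested, 32.7% were called in this comparison (edgeR quasi-likelihood test, Benjamini-Hochberg adjusted p under 0.05), 16.4% higher and 16.4% lower. The 3 of 10 called is thus a share near that of all genes. By size, 3.01% of tested genes had a higher log2 fold change than SEC24D. The median log2 fold change of the 10 genes was 0.13, beside 0.01 over all tested genes, and the groups did not overlap for 5 of the 10, beside 45.2% of all genes.

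**Figure D1:**
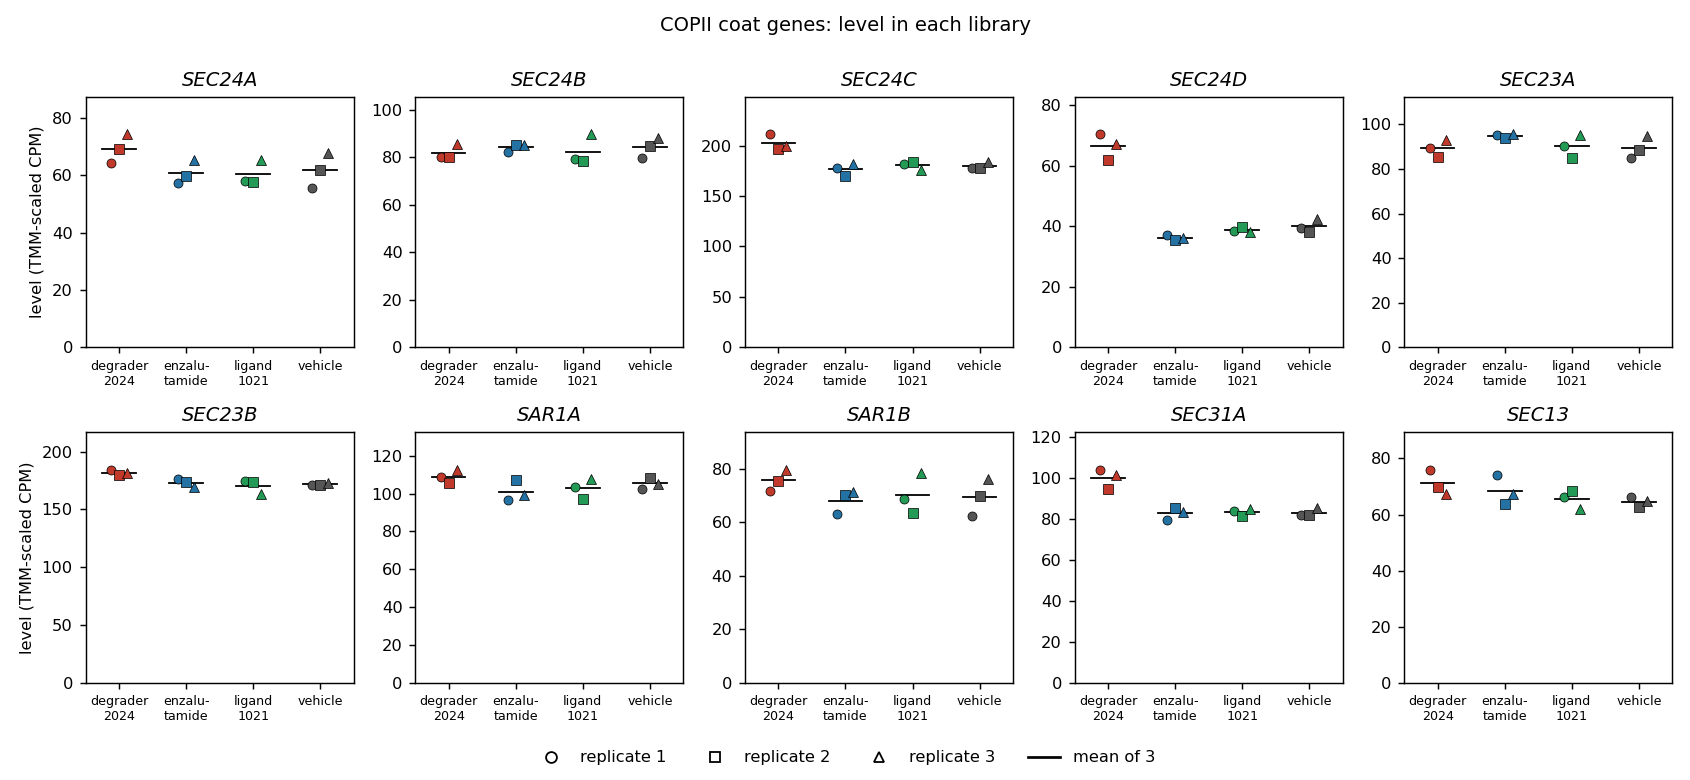
Level of each of the 10 COPII coat genes in each library (CPM), with degrader, enzalutamide, ligand and vehicle from left to right; points are libraries and lines are group means. SEC24D with the degrader lay at 61.8 to 70.4 CPM, above the 9 other libraries at 35.4 to 42.5 CPM.

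The cargo adaptors are described first. SEC24D is a member of the adaptor family whose loss in humans causes a skeletal disorder with impaired collagen export. It had 70.4, 61.8 and 67.1 CPM (counts scaled to library size) with the degrader, against 39.3, 38.1 and 42.5 CPM with vehicle. Levels were 37.0, 35.4 and 36.0 CPM with enzalutamide and 38.3, 39.6 and 38.0 CPM with the ligand. All 3 degrader libraries were higher than the 9 others, with no overlap. The log2 fold change of SEC24D with the degrader was 0.73 ± 0.06 (SE) against vehicle, with an edgeR adjusted p of 7.08e-08. It was 0.88 ± 0.06 against enzalutamide (adjusted p 9.07e-09) and 0.78 ± 0.06 against the ligand (adjusted p 5.56e-08). SEC24D passed the threshold in these 3 comparisons under each of the 13 alternatives run, with adjusted p of at most 6.93e-06 against vehicle, 4.05e-07 against enzalutamide and 4.08e-06 against the ligand.

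SEC24C is the most abundant adaptor of the family. Its levels were 211, 196 and 200 CPM with the degrader, against 177, 177 and 183 CPM with vehicle. Levels were 178, 170 and 181 CPM with enzalutamide and 181, 184 and 176 CPM with the ligand. The degrader libraries were again the 3 highest of 12, by a smaller margin than for SEC24D. The log2 fold change of SEC24C was 0.17 ± 0.04 against vehicle (edgeR adjusted p 0.00541), 0.20 ± 0.04 against enzalutamide (0.00248) and 0.16 ± 0.04 against the ligand (0.00924). Against the ligand, the SEC24C call was lost without degrader replicate 1, at a log2 fold change of 0.13 and an edgeR adjusted p of 0.0508, in a range of 0.00202 to 0.0508 over 13 alternatives.

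SEC24A and SEC24B, the other pair of adaptors, did not pass in the model without a replicate block. SEC24A, a cargo adaptor of the inner coat, had 64.2, 69.1 and 74.3 CPM with the degrader, against 55.8, 61.8 and 67.9 CPM with vehicle. It had 57.2, 59.9 and 65.4 CPM with enzalutamide and 58.1, 57.8 and 65.2 CPM with the ligand. The groups overlapped, and the third replicate was the highest in each of the 4 groups. The log2 fold change of SEC24A was 0.16 ± 0.08 against vehicle (edgeR adjusted p 0.115), 0.19 ± 0.08 against enzalutamide (0.0746) and 0.20 ± 0.08 against the ligand (0.0640).

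These values for SEC24A lay near the threshold and crossed it when 1 library was left out. They also crossed it in all 3 degrader comparisons with the replicate number as a block. The edgeR adjusted p was 0.0345 against vehicle without vehicle replicate 3, 0.0381 against enzalutamide without degrader replicate 1 and 0.0477 without enzalutamide replicate 3. Against the ligand it was 0.0346 without degrader replicate 1 and 0.0243 without ligand replicate 3. Over 13 alternatives the adjusted p of SEC24A ran from 0.00343 to 0.404 against vehicle, 0.00132 to 0.278 against enzalutamide and 0.000936 to 0.269 against the ligand. The lowest value of each range came with the replicate number as a block. SEC24B had 80.1, 79.9 and 85.7 CPM with the degrader, against 79.7, 84.6 and 88.2 CPM with vehicle. It had 82.2, 84.9 and 85.1 CPM with enzalutamide and 79.1, 78.3 and 89.6 CPM with the ligand. The 4 groups of SEC24B overlapped; its fold against vehicle was 0.973 with the degrader, with a 95% confidence interval of 0.895 to 1.06.

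**Figure D2:**
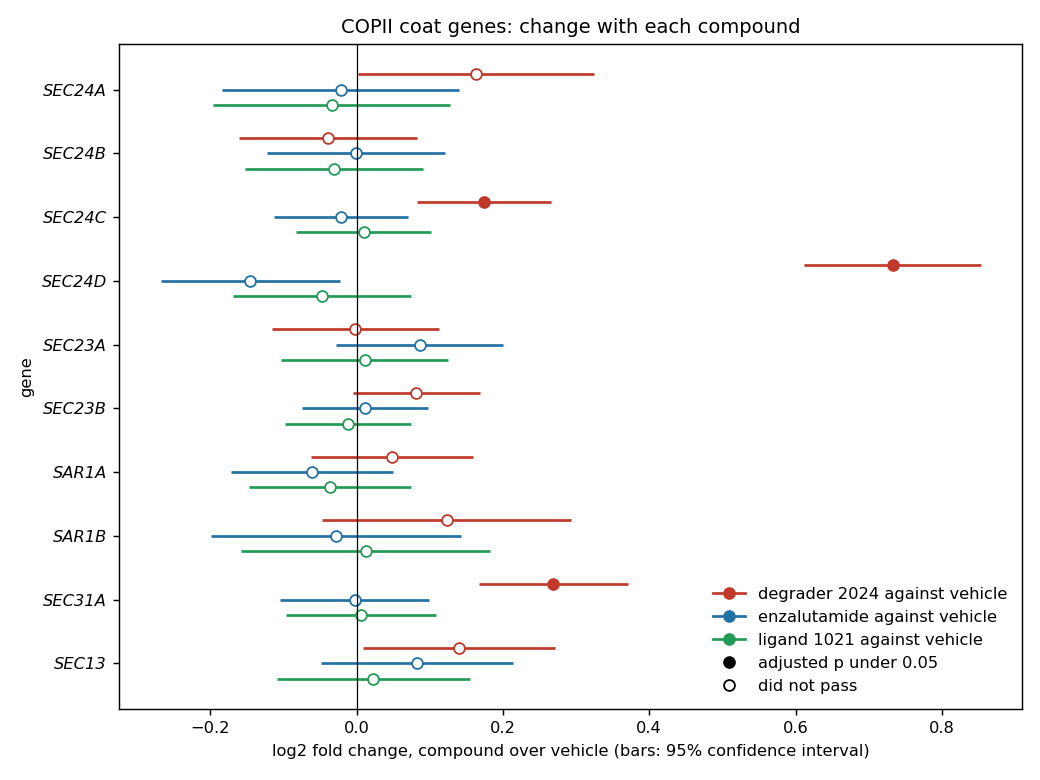
Log2 fold change of each COPII coat gene with the degrader, enzalutamide and the ligand, each against vehicle, with 95% confidence intervals from the edgeR model; filled points passed an adjusted p under 0.05. With the degrader against vehicle, SEC24D stands at 0.73, SEC31A at 0.27 and SEC24C at 0.17, and none of the enzalutamide or ligand points is filled.

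The outer cage held the other gene that rose. SEC31A forms the rods that, with SEC13, cross-link the inner coat. It had 104, 94.3 and 101 CPM with the degrader, against 81.7, 81.8 and 85.1 CPM with vehicle. It had 79.6, 85.3 and 83.2 CPM with enzalutamide and 83.5, 81.4 and 84.7 CPM with the ligand. The degrader libraries were the 3 highest, and the other groups overlapped. The log2 fold change of SEC31A was 0.27 ± 0.05 against vehicle (edgeR adjusted p 0.000417), 0.27 ± 0.05 against enzalutamide (0.000395) and 0.26 ± 0.05 against the ligand (0.000682).

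SEC13, the partner of SEC31A, which is also a subunit of the nuclear pore, had 76.0, 70.0 and 67.3 CPM with the degrader, against 66.2, 62.7 and 64.8 CPM with vehicle. It had 74.0, 63.7 and 67.4 CPM with enzalutamide and 66.1, 68.5 and 62.1 CPM with the ligand. The degrader libraries lay above the vehicle libraries but overlapped the other 2 groups. The log2 fold change of SEC13 against vehicle was 0.14 ± 0.06, with an edgeR adjusted p of 0.0963 that became 0.0489 when library totals replaced the TMM scaling, in a range of 0.0277 to 0.341 over 13 alternatives.

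SEC23A and SEC23B, the subunits that stimulate SAR1, did not pass in any comparison. SEC23B, which is mutated in a human congenital anemia, ranged over 179 to 184 CPM with the degrader, 170 to 177 with enzalutamide, 163 to 174 with the ligand and 171 to 173 with vehicle. Its degrader libraries were above all others, yet the difference was small: a log2 fold change of 0.08 ± 0.04 against vehicle (edgeR adjusted p 0.140) and 0.09 ± 0.04 against the ligand (0.10, or 0.0427 with library totals in place of TMM, in a range of 0.0427 to 0.321 over 13 alternatives). SEC23A ranged over 85.4 to 93.2 CPM with the degrader, 94.0 to 95.6 with enzalutamide, 84.8 to 95.3 with the ligand and 85.1 to 94.7 with vehicle. Its fold with the degrader against vehicle was 0.999, with a 95% confidence interval of 0.922 to 1.08.

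The GTPases SAR1A and SAR1B, which start coat assembly, did not pass either in the model without a replicate block. SAR1A ranged over 106 to 113 CPM with the degrader, 96.5 to 107 with enzalutamide, 97.3 to 108 with the ligand and 103 to 108 with vehicle. SAR1B, whose loss in humans blocks export of chylomicrons from enterocytes, ranged over 71.6 to 79.6 CPM with the degrader, 62.9 to 71.1 with enzalutamide, 63.3 to 78.2 with the ligand and 62.5 to 76.1 with vehicle. Folds with the degrader against vehicle were 1.03 for SAR1A (95% confidence interval 0.958 to 1.12) and 1.09 for SAR1B (0.968 to 1.23). With the replicate number as a block, SAR1B passed for the degrader against enzalutamide (edgeR adjusted p 0.0214). Over 13 alternatives the adjusted p of SAR1B in that comparison ran from 0.0214 to 0.451. For SEC24A, SEC24B, SEC23A and SAR1B the third replicate was the highest library in 4 of 4 groups.

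Against enzalutamide, 3 of the 10 coat genes rose with the degrader and 0 fell, the same SEC24D, SEC31A and SEC24C; 32.3% of all tested genes were called there, 16.3% higher and 16.1% lower. Against the ligand, the same 3 rose and 0 fell, beside 28.5% of all genes called, 14.3% higher and 14.2% lower. The 3 degrader comparisons share the degrader libraries, so they are not separate evidence. Groups did not overlap for 6 of 10 coat genes against enzalutamide (46.4% of all genes) and for 4 of 10 against the ligand (38.7%), and the median log2 fold change was 0.13 against enzalutamide and 0.11 against the ligand.

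Enzalutamide and the ligand moved no coat gene past the threshold. With enzalutamide against vehicle 0 of 10 were called, beside 1.44% of all genes (0.350% higher, 1.09% lower), and 1 of 10 had an unadjusted p under 0.05, beside 9.88% of all genes. That gene was SEC24D, whose 3 enzalutamide libraries lay below all 3 vehicle libraries, a separation that 17.1% of all genes showed: the log2 fold change was -0.15 ± 0.06, with an edgeR p of 0.0225 and an adjusted p of 0.376. With the ligand against vehicle 0 of 10 were called and 0 of 10 had an unadjusted p under 0.05, beside 0.237% of all genes called (0.203% higher, 0.0339% lower) and 7.33% with an unadjusted p under 0.05. The same counts of 0 held for the ligand against enzalutamide, beside 2.04% of all genes called (1.37% higher, 0.667% lower) and 9.16% with an unadjusted p under 0.05. DESeq2 and limma-voom also called 0 of 10 in these 3 comparisons. The 95% confidence intervals of the 10 folds with the ligand against vehicle ran within 0.873 to 1.14.

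In the authors' deposited table, SEC24D had a fold of 1.66 with the degrader against vehicle (adjusted p 2.76e-30), SEC31A 1.20 (1.57e-06) and SEC24C 1.12 (0.00129). The other 7 coat genes had an adjusted p of at least 0.112 in the authors' deposited table. These values rest on the same libraries and are not separate evidence. For SEC24D and SEC31A the deposited adjusted p equalled the lowest over the 13 alternatives run here.

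The make-up of the adaptor family differed between groups. The 4 SEC24 genes summed to 81.3 ± 1.85 FPKM with the degrader, 67.9 ± 1.20 with enzalutamide, 69.0 ± 1.47 with the ligand and 69.7 ± 2.57 with vehicle (SD, n = 3 each). Of that sum, SEC24D made up 18.4 ± 0.725% with the degrader, 11.9 ± 0.358% with enzalutamide, 12.6 ± 0.369% with the ligand and 12.9 ± 0.424% with vehicle. By library its share was 19.1, 17.7 and 18.3% with the degrader, against 13.1, 12.4 and 13.1% with vehicle, with no overlap. SEC24C stayed the major adaptor, at 50.4 ± 1.36% with the degrader and 52.1 ± 1.17% with vehicle. SEC24B made up 19.0 ± 0.886% with the degrader and 22.3 ± 0.515% with vehicle, and SEC24A 12.3 ± 0.993% with the degrader and 12.8 ± 0.745% with vehicle. These shares are relative to the family sum, and the SEC24B level itself did not pass a test.

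**Figure D3:**
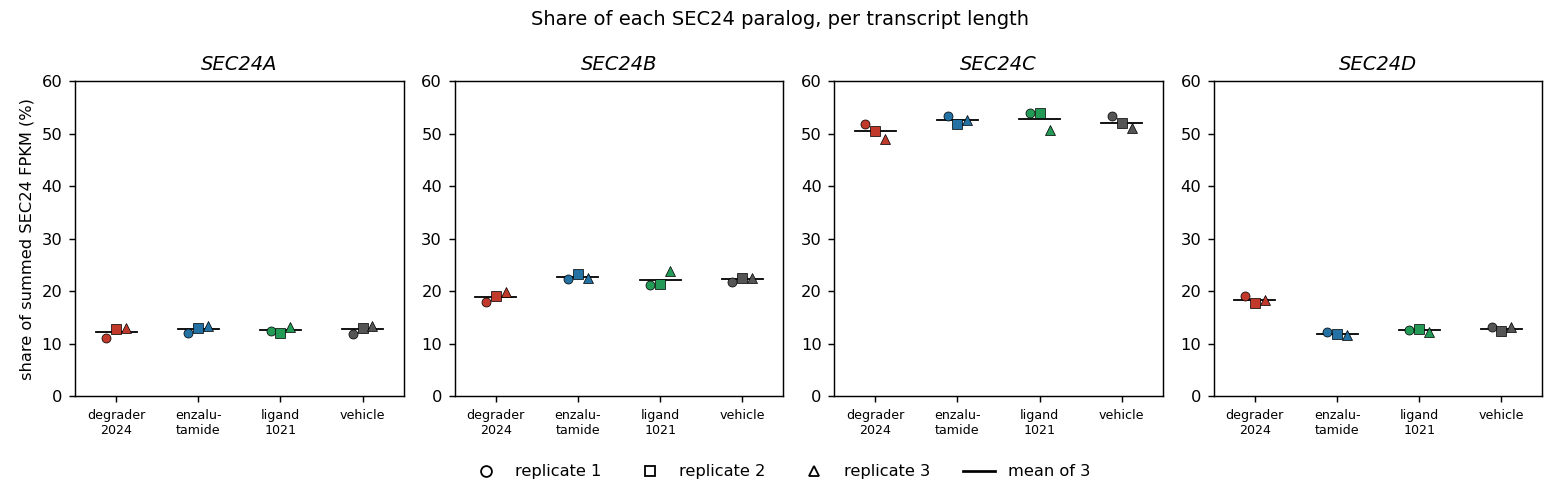
Share of the summed SEC24 level (FPKM, percent) held by each of the 4 SEC24 paralogs in each library, with degrader, enzalutamide, ligand and vehicle from left to right; lines are group means and points libraries. SEC24D holds 17.7 to 19.1% in degrader libraries and 12.4 to 13.1% in vehicle libraries.

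The make-up of the paired families differed less. SEC23B held 71.9 ± 0.748% of the SEC23 sum with the degrader, 69.6 ± 0.568% with enzalutamide, 70.3 ± 1.95% with the ligand and 70.7 ± 1.02% with vehicle. SAR1A held 61.5 ± 1.08% of the SAR1 sum with the degrader, 62.2 ± 1.27% with enzalutamide, 62.0 ± 1.39% with the ligand and 62.7 ± 2.02% with vehicle.

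Ratios of paralogs within a library, in which library size cancels, were tested over the 4 groups with an exact permutation test of the F statistic, adjusted over the 8 ratios. 4 of 8 passed, and 3 of these 4 had SEC24D on top. Those 3 ratios share the counts of SEC24D, so they are not separate evidence. The log2 ratio of SEC24D over SEC24C was -1.59, -1.67 and -1.57 with the degrader, against -2.17, -2.22 and -2.11 with vehicle. With enzalutamide it was -2.27, -2.27 and -2.33, and with the ligand -2.24, -2.21 and -2.21. The 3 degrader libraries had the highest ratios, the enzalutamide libraries the lowest. The exact permutation p over the 4 groups was 0.000195, or 0.00156 adjusted, and the degrader minus vehicle difference was 0.56. SEC24D was thus higher relative to SEC24C in the degrader libraries, although SEC24C itself rose.

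SEC24D over SEC24B also passed over the 4 groups (exact permutation p 0.00377, adjusted 0.0151), as did SEC24D over SEC24A (0.00721, adjusted 0.0192). The degrader minus vehicle differences were 0.77 for SEC24D over SEC24B and 0.57 for SEC24D over SEC24A on the log2 scale, each with an exact permutation p of 0.1 for that pair of groups, the smallest that 3 libraries against 3 allow. Degrader libraries lay above all others in both ratios. SEC24B over SEC24A had a log2 ratio of 0.25 ± 0.07 with the degrader, 0.47 ± 0.08 with enzalutamide, 0.45 ± 0.01 with the ligand and 0.45 ± 0.07 with vehicle (exact permutation p 0.0164, adjusted 0.0329). The SEC24B over SEC24A call was lost, at adjusted values of 0.0530 to 0.0757, without degrader replicate 2 or 3, enzalutamide replicate 1 or 2, ligand replicate 1 or 2, or vehicle replicate 2. SEC24C over SEC24B did not pass (exact permutation p 0.0601, adjusted 0.0962), and did without ligand replicate 3 (adjusted 0.0138).

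The ratios SEC24C over SEC24A, SEC23A over SEC23B and SAR1A over SAR1B did not pass, with adjusted exact permutation values of 0.982, 0.272 and 0.887. Between single groups, an exact two-sided permutation p of 0.1, the smallest possible, means that the groups did not overlap. The ratios that had SEC24D on top reached it in each of the 3 degrader comparisons, and so did SEC24B over SEC24A. With the degrader, SEC24C over SEC24B reached it against vehicle and enzalutamide, and SEC23A over SEC23B against enzalutamide. Without the degrader it was reached by SEC24D over SEC24C (log2 difference -0.12) and SEC24D over SEC24B (-0.14) with enzalutamide against vehicle, and by SEC24D over SEC24C with the ligand against enzalutamide (0.07). Of the reference transcripts, 0% of the longest transcript of each SEC24 gene, SEC23B, SEC31A and SEC13 matched a transcript of another gene over 75 bases at 95% identity. The shares were 2.21% for SEC23A, 2.52% for SAR1A and 1.77% for SAR1B, and no match was to another coat gene.

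**Figure D4:**
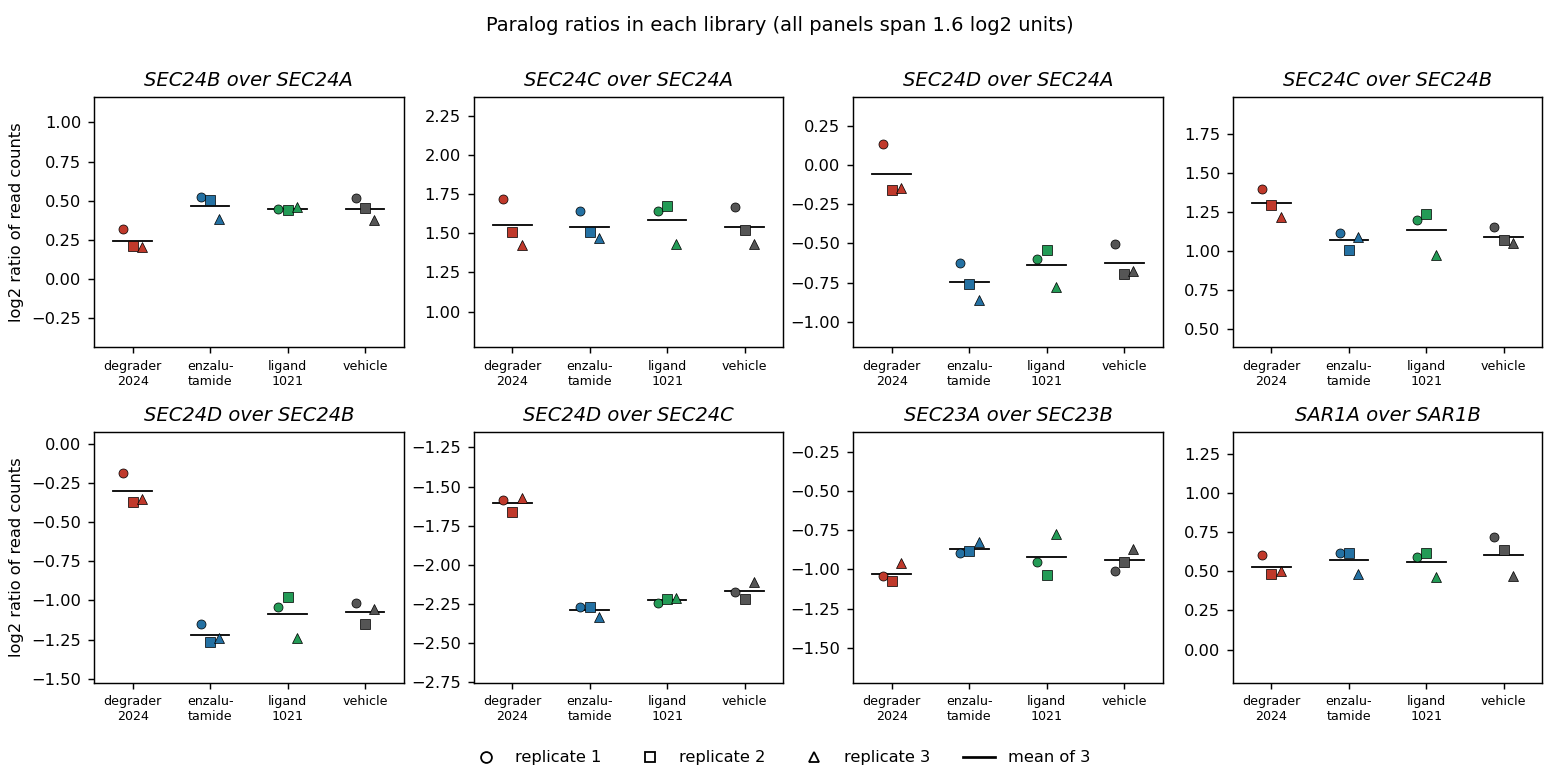
Log2 ratio of the counts of 2 paralogs in each library for the 8 pairs, with degrader, enzalutamide, ligand and vehicle from left to right; lines are group means. SEC24D over SEC24C averaged -1.61 with the degrader and -2.17 with vehicle, while SAR1A over SAR1B averaged 0.53 with the degrader and 0.61 with vehicle.

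The genes whose levels followed SEC24D most closely over the 12 libraries, among 11450 genes of at least 5 CPM, were EIF1 (Pearson r 0.991), HERPUD1 (0.988), SLC31A1 (0.987), COPA (0.987) and HYOU1 (0.984). All libraries share the step between degrader and the rest; over the 9 libraries without the degrader, r was 0.73, 0.58, 0.61, 0.61 and 0.52 in that order. EIF1 is a translation initiation factor, HERPUD1 a protein of ER-associated degradation, SLC31A1 a copper transporter, COPA a subunit of the COPI coat and HYOU1 an ER chaperone. HERPUD1 averaged 150.6 CPM with the degrader and 85.3 CPM with vehicle, and HYOU1 averaged 491 CPM with the degrader and 342 CPM with vehicle.

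Factors that build and control the coat moved in part. Of 14 listed genes of COPII assembly and regulation, 6 rose and 1 fell with the degrader against vehicle, and the median log2 fold change was 0.12, beside the 16.4% of all genes that rose and the 16.4% that fell. MIA2 and MIA3, which encode receptors at ER exit sites that help load bulky cargo, had the smallest p of the list. MIA2 averaged 138 ± 5.47 CPM with the degrader and 86.1 ± 1.36 with vehicle, and MIA3 averaged 230.9 ± 4.04 CPM with the degrader and 169 ± 3.44 with vehicle. Their log2 fold changes were 0.68 ± 0.05 for MIA2 (edgeR adjusted p 5.31e-08) and 0.45 ± 0.04 for MIA3 (9.16e-07). TBC1D20, which encodes a GTPase-activating protein for RAB1, rose by 0.45 ± 0.05 on the log2 scale (edgeR adjusted p 1.53e-06). ALG2, at 0.35 ± 0.06 (edgeR adjusted p 0.000141), encodes a mannosyltransferase of N-glycan synthesis, and shares its name with the calcium-binding coat regulator that PDCD6 encodes; PDCD6 itself had a log2 fold change of -0.02 and did not pass.

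SEC16A, the scaffold of ER exit sites, rose by 0.16 ± 0.05 (edgeR adjusted p 0.0175). SEC31B, the low paralog of SEC31A at 7.35 ± 0.581 CPM with the degrader and 5.96 ± 0.345 with vehicle, rose by 0.30 ± 0.10 (0.0346). CUL3, the ubiquitin ligase subunit that acts on SEC31, fell by 0.19 on the log2 scale (adjusted p 0.00408). PREB, the exchange factor of SAR1, and TFG, which organises exit sites, had log2 fold changes of 0.01 and 0.02 and did not pass. The last 5 genes were named after their values were seen. Of the 7 called genes, 5 kept their call without any 1 of the 6 libraries compared. SEC16A lost it without degrader replicate 2 or vehicle replicate 1 or 2 (adjusted p 0.0550 to 0.0690), and SEC31B without degrader replicate 2 or 3 or vehicle replicate 1 or 3 (0.0649 to 0.138).

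Of 26 cargo receptors, 9 rose and 3 fell with the degrader against vehicle, beside 16.4% of all genes in each direction, and the median log2 fold change was 0.12. TMED10, a receptor of the p24 family, averaged 323 ± 11.5 CPM with the degrader and 232 ± 11.3 with vehicle, a log2 fold change of 0.47 ± 0.05 (edgeR adjusted p 1.59e-06). KDELR3, a receptor that returns ER proteins, rose by 0.57 ± 0.08 (5.38e-05), the p24 protein TMED9 by 0.36 ± 0.06 (0.000111) and MCFD2, a partner of LMAN1 in the export of coagulation factors, by 0.28 ± 0.05 (0.000302). The 3 that fell were CNIH2, by 0.40, TMED4, by 0.14, and BCAP31, by 0.16 on the log2 scale, with edgeR adjusted values of 0.000534, 0.0100 and 0.0352. Without 1 library, 9 of the 12 calls held. TMED4 lost its call without degrader replicate 2 or vehicle replicate 2 (0.0528 and 0.0553), and BCAP31 without degrader replicate 2 or 3 or vehicle replicate 1 or 2 (0.0753 to 0.156).

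Of 20 genes of tethering and fusion at the early Golgi, 8 rose and 2 fell, beside 16.4% of all genes in each direction, with a median of 0.12, and 5 of these 10 kept their call without any 1 library. GOLGA2, a Golgi matrix protein, averaged 177 ± 4.65 CPM with the degrader and 121 ± 1.31 with vehicle (log2 fold change 0.54 ± 0.04, edgeR adjusted p 6.96e-08). The tether subunit TRAPPC6B rose by 0.36 ± 0.05 (6.46e-05) and the SNARE genes STX5 by 0.40 ± 0.07 (0.000355) and SEC22B by 0.49 ± 0.10 (0.00142). RAB1B and TRAPPC1 fell by 0.18 and 0.19 on the log2 scale, with edgeR adjusted values of 0.0321 and 0.0339, and both calls were lost without degrader replicate 2 or 3 or vehicle replicate 1. The RAB1B call was lost too without vehicle replicate 3, and that of TRAPPC1 without vehicle replicate 2 (0.0586 to 0.115 for RAB1B and 0.0835 to 0.117 for TRAPPC1 over these libraries).

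Of 15 genes of the COPI coat, which carries cargo back from the Golgi, 4 rose and 0 fell, beside 16.4% of all genes in each direction and 32.7% in all, with a median of 0.11. COPG1 averaged 253.5 ± 15.5 CPM with the degrader and 187 ± 2.37 with vehicle (log2 fold change 0.44 ± 0.05, edgeR adjusted p 3.88e-06). COPA rose by 0.29 ± 0.04 (2.41e-05), COPZ2 by 0.51 ± 0.12 (0.00372) and ARFGAP3, a GTPase-activating protein for ARF1, by 0.15 ± 0.05 (0.0206). The ARFGAP3 call was lost without degrader replicate 1 or 3 or vehicle replicate 2 or 3 (0.0521 to 0.0833).

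**Figure D5:**
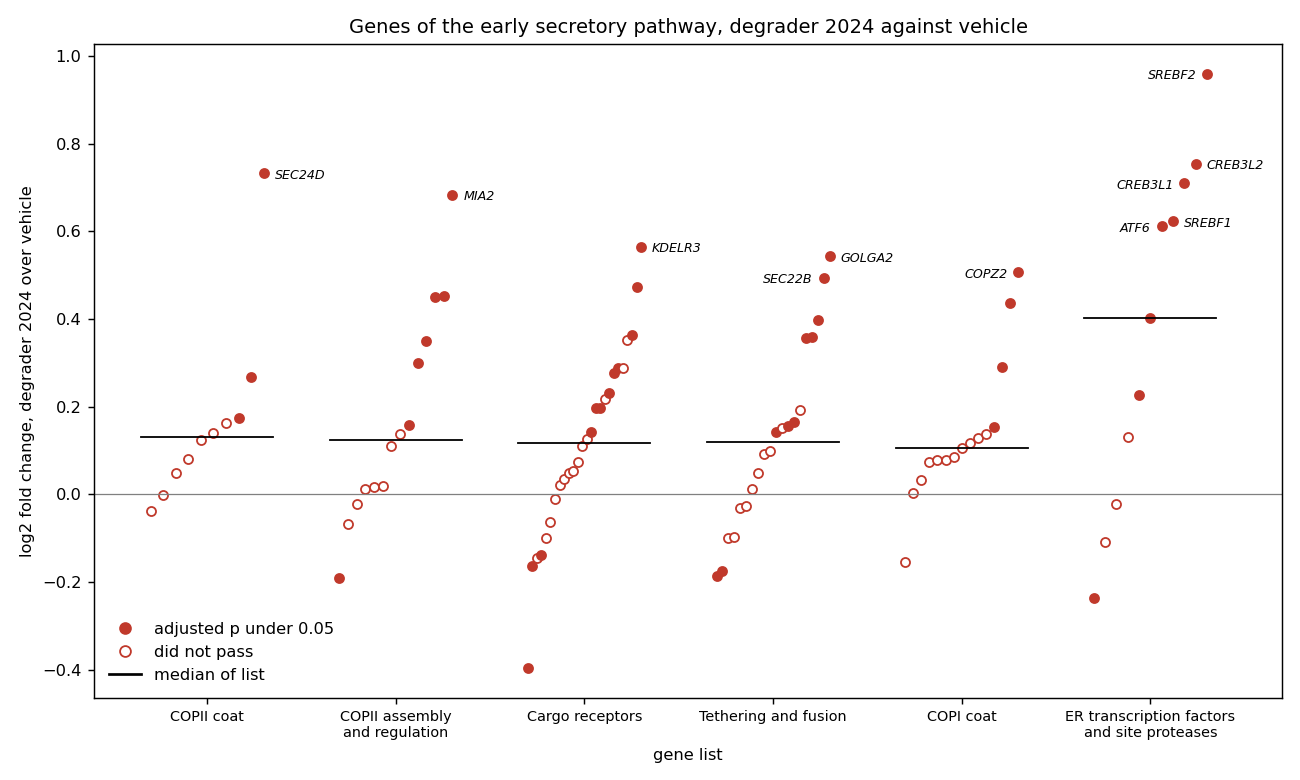
Log2 fold change with the degrader against vehicle for the 10 COPII coat genes and 5 lists of genes of the early secretory pathway; each point is a gene, filled where the adjusted p was under 0.05, and lines are list medians. The medians lie at 0.13 for the COPII coat and 0.40 for the ER transcription factors and site proteases.

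The ER transcription factors and their site proteases had the highest median of the 5 lists, 0.40 over 11 of 12 genes listed, with 7 higher and 1 lower. Over all genes the median was 0.01, with 16.4% called in each direction. These factors are anchored in the ER membrane or made in response to ER stress. SREBF2, the activator of cholesterol synthesis genes, averaged 604 ± 34.4 CPM with the degrader and 311 ± 5.64 with vehicle (log2 fold change 0.96 ± 0.05, edgeR adjusted p 8.65e-10). CREB3L2, known in mouse and zebrafish to activate SEC23 and SEC24 genes in secretory cells, averaged 149 ± 3.05 CPM with the degrader and 88.4 ± 4.15 with vehicle (0.75 ± 0.05, 1.22e-08). ATF6 rose by 0.61 ± 0.05 (8.07e-08) and SREBF1 by 0.62 ± 0.05 (1.46e-07). The 1 that fell was CREB3L4, by 0.24 on the log2 scale (edgeR adjusted p 0.00540). The site proteases MBTPS1 and MBTPS2 had log2 fold changes of -0.02 and -0.11 and did not pass. All 8 calls in this list held without any 1 library.

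The lists were counted against the other agents too, beside 32.3% of all genes called where enzalutamide was the comparator and 28.5% where the ligand was. With the degrader against enzalutamide, 4 of 14 genes of COPII assembly rose and 0 fell: MIA2 by 0.71, MIA3 by 0.53, TBC1D20 by 0.48 and ALG2 by 0.32 on the log2 scale, with edgeR adjusted p of at most 0.000327. Against the ligand 5 rose and 1 fell. Of the 26 cargo receptors, 10 rose and 4 fell against enzalutamide, and 8 rose and 4 fell against the ligand. Of the 20 tethering and fusion genes, 8 rose and 2 fell in each of both comparisons. Of the 15 COPI genes, 6 rose against enzalutamide and 7 against the ligand, with 0 lower in both. Of the 11 transcription factors and proteases, 7 rose and 1 fell in each. Without any 1 of the 6 libraries compared, the calls against enzalutamide that held were 4 of 4 for COPII assembly, 11 of 14 for cargo receptors, 8 of 10 for tethering and fusion, 4 of 6 for COPI and 8 of 8 for the transcription factors. Against the ligand they were 4 of 6 for COPII assembly, 7 of 12 for cargo receptors, 8 of 10 for tethering and fusion, 4 of 7 for COPI and 6 of 8 for the transcription factors.

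Where the degrader was not compared, 0 genes of the first 4 lists were called. In the transcription factor list, SREBF1 and SREBF2 rose with the ligand against vehicle, with log2 fold changes of 0.47 ± 0.05 (edgeR adjusted p 0.000199) and 0.42 ± 0.05 (0.000546). SREBF1 rose with enzalutamide against vehicle by 0.24 ± 0.05 (edgeR adjusted p 0.0211). That call was lost without enzalutamide replicate 1 or 3 or vehicle replicate 2 or 3, at adjusted values of 0.0619 to 0.155. In the ligand against enzalutamide comparison SREBF2 rose by 0.37 ± 0.05 (edgeR adjusted p 0.000355), SREBF1 rose by 0.23 ± 0.05 (0.0275) and XBP1 fell by 0.18 (0.0483). Of those 3 calls, 1 held without any 1 library, that of SREBF2. SEC24D with the ligand had a log2 fold change of -0.05 ± 0.06 against vehicle and did not pass. A relation between the levels of these factors and that of SEC24D was not tested.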

How the data were processed

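RNA of 22Rv1 cells was read in 12 stranded, poly(A)-selected libraries, 3 in each of 4 groups taken from the sample titles. Per the submitters' processing notes, HISAT2, StringTie and GRCh37 were used; versions were not given in the sources used here. The authors deposited whole-number read counts per gene, which were used for the tests, and FPKM, which the authors scaled to length and depth and which served for levels between genes and paralog shares. The table lists genes with at least 1 read in every library. A deposited score holds the authors' signed linear fold change, and a deposited p-value column their Benjamini-Hochberg adjusted p; the test behind it was not given in the sources used here.

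Of 18668 genes, 17702 were kept by filterByExpr (minimum count 10, minimum total 15). Counts were scaled by TMM and fitted with the edgeR quasi-likelihood model (robust) to all 12 libraries, with 8 residual degrees of freedom, 6 contrasts, and Benjamini-Hochberg adjustment over all tested genes at 0.05. CPM are counts over TMM-scaled totals. Paralog ratios are log2 of counts plus 0.5. The p-values measure the spread between the libraries of this line. The members and lists were chosen with earlier results of these data known. Beyond the 10 members, the rule named, per list, up to 4 called genes with the smallest p with the degrader against vehicle, and every called gene where another comparison had 5 or fewer; others are named with their counts. Correlations of gene deviations between same-numbered libraries of 2 groups ran from -0.03 to 0.21. The highest correlation of a library with those of another number ran from -0.09 to 0.07. Same-numbered libraries were thus alike in part, so the replicate number was run as a block among the alternatives. Alternatives were RLE size factors, library totals, no filter, DESeq2, limma-voom, a replicate block, only the 6 libraries compared, and leaving out each library. Scripts were tested on simulated data. RefSeq promoters are on GRCh38.p14; overlap of transcripts was measured on GENCODE transcripts with blastn. The tools were DESeq2 1.42.0, limma 3.58.1 and edgeR 4.0.16 in R 4.3.3.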

Additional observations from a re-analysis of the deposited data

How the results depend on the processing

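With the replicate number as a block, 5 of 10 coat genes rose with the degrader in each of 3 comparisons, in place of 3. The additions were SEC24A (edgeR adjusted p 0.00343) and SEC13 (0.0277) against vehicle, SEC24A (0.00132) and SAR1B (0.0214) against enzalutamide, and SEC24A (0.000936) and SEC23B (0.0447) against the ligand; the adjusted p of SEC24B over SEC24A became 0.0764. Same-numbered libraries were alike in part but did not all correlate, so the block is given as an alternative. SEC24A also passed against enzalutamide with only the 6 libraries of both groups (0.0374). The SEC24D share computed from counts with no length scaling was 15.8% with the degrader, 10.1% with enzalutamide, 10.7% with the ligand and 10.9% with vehicle; without 1 library it was 18.0 to 18.7% of FPKM with the degrader, 11.8 to 12.1% with enzalutamide, 12.4 to 12.8% with the ligand and 12.8 to 13.1% with vehicle. Of 780 member fold changes recomputed under alternatives, 765 kept their side of the threshold, 14 newly passed and 1 no longer passed. None that was called in either setting changed sign, and the sign of uncalled ones was not compared. Counts over all genes moved in comparisons without the degrader. Enzalutamide against vehicle had 255 calls, 398 with DESeq2 and 553 with the block. Ligand against vehicle had 42, against 124 with DESeq2, 191 with the block, 25 with only the 6 libraries and 21 to 77 without 1 library. Ligand against enzalutamide had 361, 613 with the block and 229 without enzalutamide replicate 3. The causes were not tested. With 3 libraries a group the spread of a gene limits what is called: SEC24A, with an SE of 0.08, did not pass at a log2 fold change of 0.16 against vehicle, and SEC24C, with an SE of 0.04, passed at 0.17. Doses are not given in the labels.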
